A study of Mus musculus with 2 samples.

Results

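The SoxB genes of the mouse are 5 transcription factor genes, Sox1, Sox2, Sox3, Sox14 and Sox21, which were taken by their gene symbols out of 43346 genes listed in the deposited tables. Total RNA had been sequenced from the neural tube, which later forms brain and spinal cord, of mouse embryos of the B6NCrl strain, 11.5 days old, in a single group of 2 libraries that the labels name biological replicates. Replicate 1 pooled tissue of 109 embryos and replicate 2 of 88 embryos, with both sexes mixed, and the labels name no mutant allele and no treatment. Libraries were made from 10 ng of RNA longer than 200 bases and held 27638068 and 29166901 expected counts. With no second group there is no contrast between conditions, so levels, their order and the match between the pools are described, with no test.

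SoxB proteins bind DNA through the HMG box, a domain shared by all Sox proteins. The SoxB1 proteins (Sox1, Sox2 and Sox3) act mainly as activators that hold neural cells in the progenitor state, often together with POU and Pax partner proteins, while the SoxB2 proteins (Sox14 and Sox21) act mainly as repressors. In the spinal cord SoxB1 genes are known for expression in the dividing cells of the ventricular zone, Sox21 for expression in progenitors, where it favours differentiation, and Sox14 for expression in postmitotic V2b interneurons.

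The part of each gene that encodes the HMG box is shown because it is where the 5 genes are most alike, and so where reads of one gene could be given to another. Each stretch holds 237 bases for 79 residues, starting 5 residues before the P of the motif PMNAF, and was read from the GENCODE M21 transcripts. All of them lie in the coding part of the exon, and the longest annotated transcript of every member has 1 exon. On GRCm38 they stand at chr3:34650536-34650772 on the plus strand for Sox2, chr8:12396505-12396741 on the plus strand for Sox1, chrX:60892771-60893007 on the minus strand for Sox3, chr9:99875433-99875669 on the minus strand for Sox14 and chr14:118235384-118235620 on the minus strand for Sox21. They are written 5′ to 3′ on the coding strand, with capitals at the bases that differ from Sox2.
Sox2: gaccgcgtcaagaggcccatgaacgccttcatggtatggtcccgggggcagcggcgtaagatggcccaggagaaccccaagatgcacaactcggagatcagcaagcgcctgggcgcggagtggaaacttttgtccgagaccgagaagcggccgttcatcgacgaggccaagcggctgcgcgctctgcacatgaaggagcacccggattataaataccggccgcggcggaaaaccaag
Sox1: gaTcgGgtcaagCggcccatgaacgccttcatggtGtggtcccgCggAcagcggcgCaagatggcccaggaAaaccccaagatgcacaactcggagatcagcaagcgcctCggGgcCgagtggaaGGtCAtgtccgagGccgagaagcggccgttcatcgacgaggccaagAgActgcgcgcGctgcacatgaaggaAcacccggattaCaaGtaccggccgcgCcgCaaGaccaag
Sox3: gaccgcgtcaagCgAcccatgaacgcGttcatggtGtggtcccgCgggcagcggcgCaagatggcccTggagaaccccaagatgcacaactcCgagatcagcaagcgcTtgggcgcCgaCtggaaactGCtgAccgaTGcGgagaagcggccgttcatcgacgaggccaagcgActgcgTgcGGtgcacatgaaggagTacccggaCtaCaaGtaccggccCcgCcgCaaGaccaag
Sox14: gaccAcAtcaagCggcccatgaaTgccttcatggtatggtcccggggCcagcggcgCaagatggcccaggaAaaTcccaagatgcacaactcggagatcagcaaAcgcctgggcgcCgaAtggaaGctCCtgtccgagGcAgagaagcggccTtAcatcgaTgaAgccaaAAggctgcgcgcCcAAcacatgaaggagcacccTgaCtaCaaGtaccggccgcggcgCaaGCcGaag
Sox21: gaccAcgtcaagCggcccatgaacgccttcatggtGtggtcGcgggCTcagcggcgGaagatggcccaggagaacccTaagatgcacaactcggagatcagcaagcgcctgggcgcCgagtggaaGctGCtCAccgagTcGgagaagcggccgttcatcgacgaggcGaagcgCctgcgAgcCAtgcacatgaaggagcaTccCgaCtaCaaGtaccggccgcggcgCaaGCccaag

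From Sox2, the box differed at 25 bases in Sox1, 29 in Sox3, 29 in Sox21 and 33 in Sox14. The encoded residues were closer: the Sox1 and Sox2 boxes shared 76 of 79 residues (96.2%), and the least alike pair, Sox3 and Sox14, shared 69 (87.3%). Across the SoxB1 and SoxB2 division the Sox2 box shared 73 residues each with Sox14 and Sox21, against 72 with its own subgroup member Sox3. The number of shared residues alone thus did not sort the genes into their subgroups, and single residues were not compared. The longest run of identical bases between any 2 boxes was 38. No window of 100 bases of the Sox1, Sox2, Sox3 or Sox14 transcript occurred in a transcript of another gene. The exception was Sox21, which shared 616 of 3700 windows (16.6%) with Gm4675, a lincRNA gene annotated on the opposite strand that overlaps 713 bases of its exon. Windows of this length cannot show shorter overlaps, such as the 86 exon bases that Sox1 shares with the miRNA gene Gm25239.

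Every SoxB gene was detected, meaning 1 TPM or more in both libraries, where TPM is a transcript's share per length scaled to a common total. The same held for 59.9% of 21474 protein-coding genes and 33.0% of all genes. Sox2 stood highest at 24.4 ± 2.64 TPM (SD, n = 2 libraries, as for all levels here), followed by Sox21 at 9.14 ± 1.41, Sox3 at 7.99 ± 1.00, Sox14 at 3.55 ± 0.311 and Sox1 at 1.62 ± 0.177 TPM. The level of Sox2 was 15.1-fold that of Sox1, a log2 ratio of 3.91 ± 0.32 (SD, n = 2). Levels in whole tissue cannot tell fewer cells of a type from less RNA per cell.

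**Figure D1:**
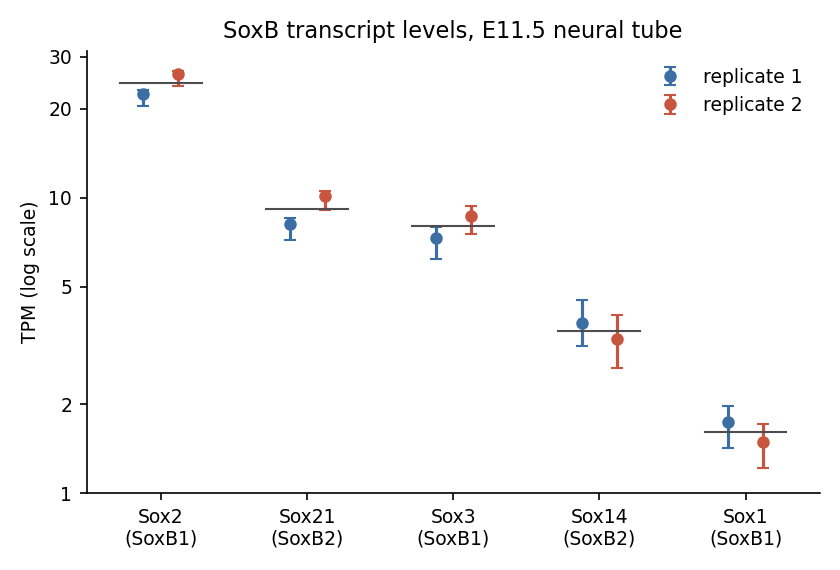
TPM of the 5 SoxB genes on a log axis, with a point for each library, a line at the mean and bars for the interval of TPM in the deposited files, which is centred on a second estimate and not on the point. Sox2 lies above all others in both libraries, the bars of Sox21 and Sox3 overlap within each library, and Sox14 and Sox1 follow below.

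Among the activators, Sox2 (ENSMUSG00000074637.6, chromosome 3, 34650405 to 34652461, GRCm38) is a factor required for neural progenitors and for pluripotent cells. Gene coordinates here and below are those of GENCODE M21, not of the models used in the files. Sox2 had 22.48 TPM in replicate 1 and 26.22 TPM in replicate 2. These values rested on 922 and 1110 expected counts. Replicate 2 was the higher, and the deposited intervals, 20.4 to 23.2 and 23.9 to 26.9 TPM, did not overlap. The model used in the files is 2457 bases long, 400 more than the 2057 bases of the later M21 annotation, and if all counts lay within the shorter model the level would be 29.3 TPM.

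Sox3 (ENSMUSG00000045179.9, chromosome X, 60891366 to 60893430), the X-linked member of the subgroup, had 7.28 TPM in replicate 1 and 8.70 TPM in replicate 2, from 249 and 307 counts. Its deposited intervals, 6.21 to 7.95 and 7.52 to 9.39 TPM, overlapped. Sox1 (ENSMUSG00000096014.1, chromosome 8, 12395295 to 12400126), a marker of committed neural progenitors that is also known from V2c interneurons, had 1.74 and 1.49 TPM, from 143 and 127 counts. Here replicate 1 was the higher, with overlapping intervals of 1.42 to 1.97 and 1.21 to 1.72 TPM. Sox1 was thus the only member that a limit of 2 TPM would leave out.

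The SoxB1 genes had a summed level of 31.5 TPM in the first library and 36.4 in the second. Sox2 held 71.7% ± 0.458 of that sum, Sox3 23.5% ± 0.554 and Sox1 4.81% ± 1.01. The shares of Sox2 and Sox3 thus moved by less than 1 percentage point between the pools although the sum was higher in replicate 2.

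Of the repressors, Sox21 (ENSMUSG00000061517.8, chromosome 14, 118233232 to 118237030) had 8.14 TPM in replicate 1 and 10.14 TPM in replicate 2, from 524 and 673 counts. Replicate 2 was higher and the deposited intervals, 7.22 to 8.57 and 9.09 to 10.6 TPM, did not overlap. Sox21, which shares a stretch with Gm4675, was the only member with fractional gene counts. Whether that stretch gave rise to the fractions was not tested. The deposited SD of the Sox21 count estimate was 2.74 and 2.97 counts, and Gm4675 itself was given 34.0 and 32.5 counts.

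Sox14 (ENSMUSG00000053747.9, chromosome 9, 99874106 to 99876170) had 3.77 and 3.33 TPM, from 129 and 107 counts, with overlapping intervals of 3.15 to 4.50 and 2.65 to 4.0 TPM. It was the only member with 2 annotated transcripts in the files. The longer, of 2065 bases, held 100% of the gene's TPM in replicate 1 and 78.0% in replicate 2, where the shorter of 1274 bases was given 15.4 counts. The deposited SD of that estimate was 6.57 counts, and the second estimate in the files put the shorter transcript at 6.80% and 24.8%. A difference in transcript use between the pools therefore rested on few counts.

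The SoxB2 genes summed to 11.9 and 13.5 TPM, and Sox21 held 68.3% and 75.3% of that. SoxB1 exceeded SoxB2 by a log2 ratio of 1.42 ± 0.02 (SD, n = 2), or 2.67-fold, with 1.40 in replicate 1 and 1.43 in replicate 2. This ratio depends on gene length: on expected counts not divided by length it was 0.996.

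In the order of levels, Sox2 exceeded Sox21 by a log2 ratio of 1.42 ± 0.07, Sox3 exceeded Sox14 by 1.17 ± 0.31 and Sox14 exceeded Sox1 by 1.14 ± 0.03 (SD, n = 2). Each of these differences was larger than 2 SD, and the deposited intervals of the 2 genes did not overlap in either library. Sox21 and Sox3 were closer, with log2 ratios of 0.16 and 0.22 (mean 0.19 ± 0.04). That difference too was larger than 2 SD and had the same sign in both libraries, but the deposited intervals of the pair overlapped in each. The order of Sox14 and Sox1 also needs the division by length, since the Sox1 transcript is 4832 bases long and had more counts than Sox14 in both libraries (log2 ratio of Sox14 to Sox1 of -0.20 on counts).

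The match of the pools was described by the log2 ratio of replicate 2 to replicate 1 on expected counts scaled by TMM factors, with 1 library on each side and so no replicate check. Sox21 (0.27), Sox3 (0.21) and Sox2 (0.18) were higher in replicate 2, and Sox1 (-0.26) and Sox14 (-0.35) were lower. The exact 95% intervals, which cover counting error only, left out equality for Sox2 (fold 1.04 to 1.24) and Sox21 (1.08 to 1.36). For Sox3 (0.978 to 1.38), Sox1 (0.653 to 1.07) and Sox14 (0.598 to 1.02) they held it, so a difference was not detectable at this depth. The Sox14 ratio was -0.18 on deposited TPM, for which the assigned mean transcript length was 2065 bases in replicate 1 and 1891 in replicate 2.

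Of the 5 members, 0 passed 1.5-fold in either direction. Over the 17219 genes with 10 counts in at least 1 library, 4.87% were more than 1.5-fold higher and 5.95% more than 1.5-fold lower in replicate 2, and among the 12528 genes with 100 counts in at least 1 library, as all 5 members have, 0.639% were higher and 0.902% lower. The median absolute log2 ratio over the 17219 genes was 0.12, so the SoxB ratios, 0.18 to 0.35 in size, were larger than that of the median gene but within the range of 1.5-fold.

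**Figure D2:**
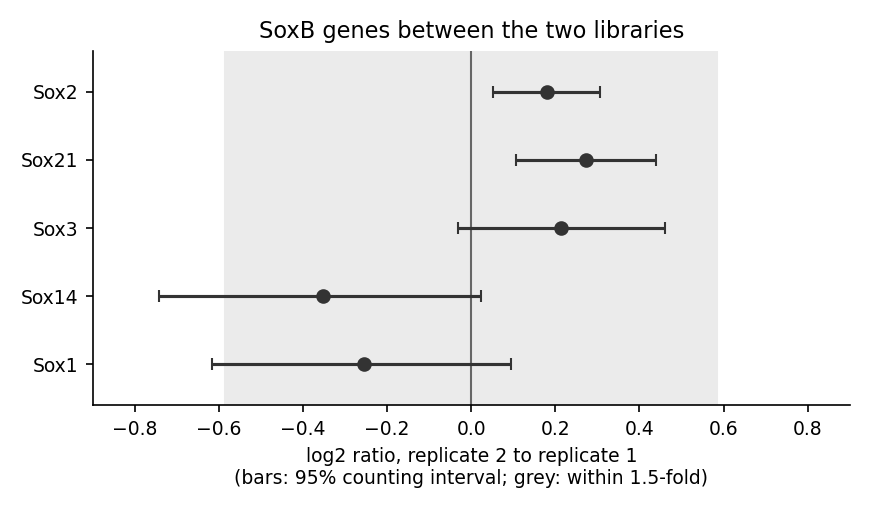
Log2 ratio of replicate 2 to replicate 1 for each SoxB gene, with bars for the exact 95% counting interval and grey for changes within 1.5-fold. The points of Sox2, Sox21 and Sox3 lie to the right of 0 and those of Sox14 and Sox1 to the left, and the bars of Sox2 and Sox21 do not reach 0.

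Small differences between the pools, none past 1.5-fold, also stood in the lists of neural and crest genes, and they are given as values with no test. The ratios are on scaled counts. The sums are of deposited TPM, in which spike-ins held 13.2% in replicate 1 and 11.8% in replicate 2, so the sums also carry that difference. All 8 postmitotic neuron markers were higher in replicate 2, at a median log2 ratio of 0.12, and their summed level was 1891 TPM in the first pool against 2184 in the second. So were 9 of 10 proneural and neuron-committing genes (median 0.15, sums of 271 and 312 TPM) and 7 of 7 neural crest and Schwann precursor markers (median 0.33, sums of 139 and 165 TPM). Of 13 neural progenitor genes 8 were higher, at a median of 0.05 and sums of 2541 and 2624 TPM, and the median over all genes tested was -0.002. Some other lists were mostly lower in replicate 2. Among SoxB partner factors and cofactors 8 of 11 were lower (median -0.04). Of foregut markers 4 of 5 with a ratio were lower (median -0.07), 2 of them past 1.5-fold. Of pituitary markers 2 of 2 with a ratio were lower (median -0.70), 1 of them past 1.5-fold. The part of any of these cell populations in the higher Sox2, Sox3 and Sox21 of replicate 2 was not tested.

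Within the Sox family the SoxB genes were a small part of the transcripts. Of 20 Sox genes 17 were detected, and the SoxB genes took 5.22% ± 0.368 of the summed Sox TPM. The SoxC genes, which follow in neurons as they leave the cell cycle, took 68.6% ± 0.825, led by Sox11 at 468 ± 12.6 TPM and Sox4 at 130 ± 1.91 TPM. SoxC exceeded SoxB1 by a log2 ratio of 4.18 ± 0.13 (SD, n = 2), or 18.1-fold. SoxE genes took 17.5% ± 0.188, most of it Sox9, a factor of progenitors and later glia and also of cartilage, which stood 5.25-fold above Sox2.

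Sox2 ranked 4 of 20 by mean level, Sox21 10, Sox3 13, Sox14 16 and Sox1 17, the lowest of the detected genes. Next to Sox2 stood Sox5 of the SoxD group at 22.9 ± 2.23 TPM and Sox10, the neural crest factor of the SoxE group, at 22.9 ± 4.47 TPM. Sox2 lay above Sox5 in both libraries, by 22.48 against 21.33 TPM and 26.22 against 24.48 TPM, and above Sox10, at 19.72 and 26.04 TPM, although the SDs of the 3 levels overlapped. Against the protein-coding genes, 73.4% had a lower mean level than Sox2, 58.2% than Sox21, 56.4% than Sox3, 48.0% than Sox14 and 42.1% than Sox1.

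**Figure D3:**
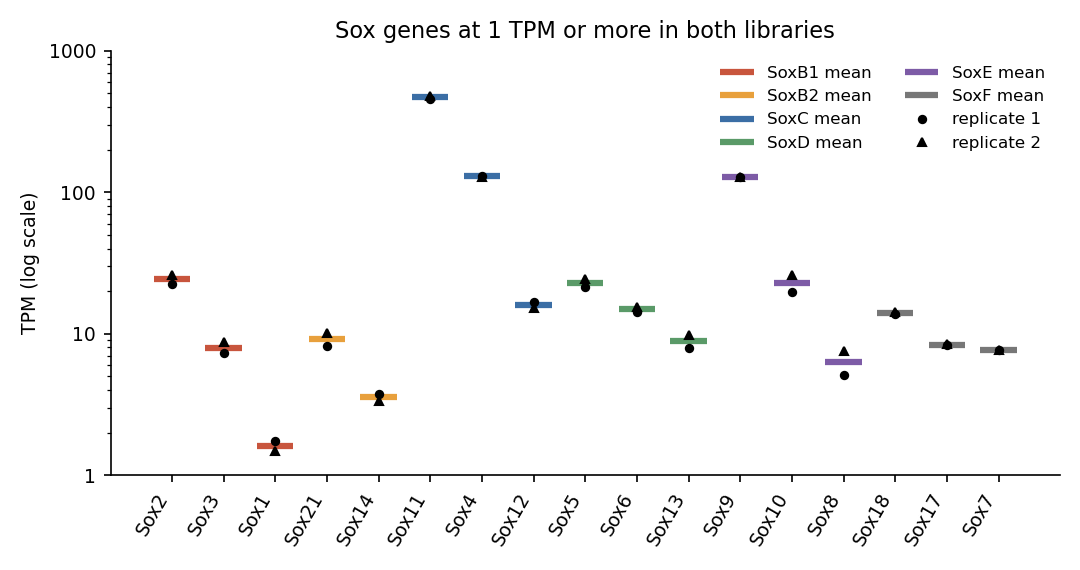
TPM on a log axis of the 17 Sox genes at 1 TPM or more in both libraries, by group, with a symbol for each library and a coloured line at the mean. Sox11, Sox4 and Sox9 stand above 100 TPM, Sox2 lies close to Sox5 and Sox10, and Sox1 is the lowest.

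The 11 partner factors and cofactors, genes whose products work with the SoxB proteins, were all detected. The share to set beside this, and beside the counts detected in the lists below, is 59.9% of protein-coding genes. The median level of the 11 genes was 23.0 TPM, against 4.40 TPM for protein-coding genes. The highest were the chromatin remodeller Chd7 at 85.3 ± 5.62 TPM, the corepressor genes Tle1 and Tle4 at 38.7 ± 2.61 and 24.0 ± 1.89 TPM, and the acetyltransferase gene Crebbp at 28.2 ± 0.141 TPM. Among the POU partners, Pou3f2 had 23.4 ± 2.04, Pou3f1 13.4 ± 0.255, Pou3f3 9.13 ± 0.163 and Pou3f4 6.86 ± 0.849 TPM, and Pax6, which binds DNA jointly with Sox2 in the eye, had 23.0 ± 0.948 TPM.

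Of the partners of Sox2 in pluripotent cells, Pou5f1 had 1 count in replicate 1 and 0 in replicate 2, where up to 0.261 TPM is allowed by the level of 3 counts, and Nanog had 3 and 2 counts. The 8 pluripotency factors had a median of 0.435 TPM, and 3 of them were detected, Sall4 at 6.19 ± 0.0495, Lin28a at 2.60 ± 0.148 and Klf4 at 1.21 ± 0.205 TPM, all of which also have roles outside pluripotent cells. Esrrb had 0.800 ± 0.0707 and Dppa4 0.0200 ± 0.0283 TPM. For Zfp42 there were 0 counts in both libraries, allowing up to 0.101 and 0.0983 TPM.

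The tissue carried the progenitor and neuron transcripts that its label calls for. All 13 neural progenitor genes linked to SoxB1 activity, such as the intermediate filament gene Vim and the Notch effector gene Hes5, passed 1 TPM, and their median was 62.9 TPM. The proneural and neuron-committing genes, whose action SoxB1 proteins are known to oppose and Sox21 to favour, had a median of 30.8 TPM, with 10 of 10 detected. The antiproliferative gene Btg2 had 81.9 ± 8.0 TPM, Neurod4 44.0 ± 4.19 TPM and Neurog1 32.4 ± 4.24 TPM. The 8 postmitotic neuron markers, all of them detected, had a median of 207 TPM.

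Sox14 was set beside the V2 interneuron genes, whose median was 5.65 TPM, with 7 of 8 detected. The zinc finger gene Gata3 of V2b cells had 6.95 ± 0.141 TPM, above the 3.55 TPM of Sox14. Lhx3, which motor neurons also express, had 17.7 ± 3.4 TPM, Lmo4 had 55.2 ± 4.43 TPM and Vsx1 stayed at 0.740 ± 0.0566 TPM. Between the pools, 5 of the 8 V2 genes were higher and 3 lower in replicate 2, at a median log2 ratio of 0.06, and 0 passed 1.5-fold.

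**Figure D4:**
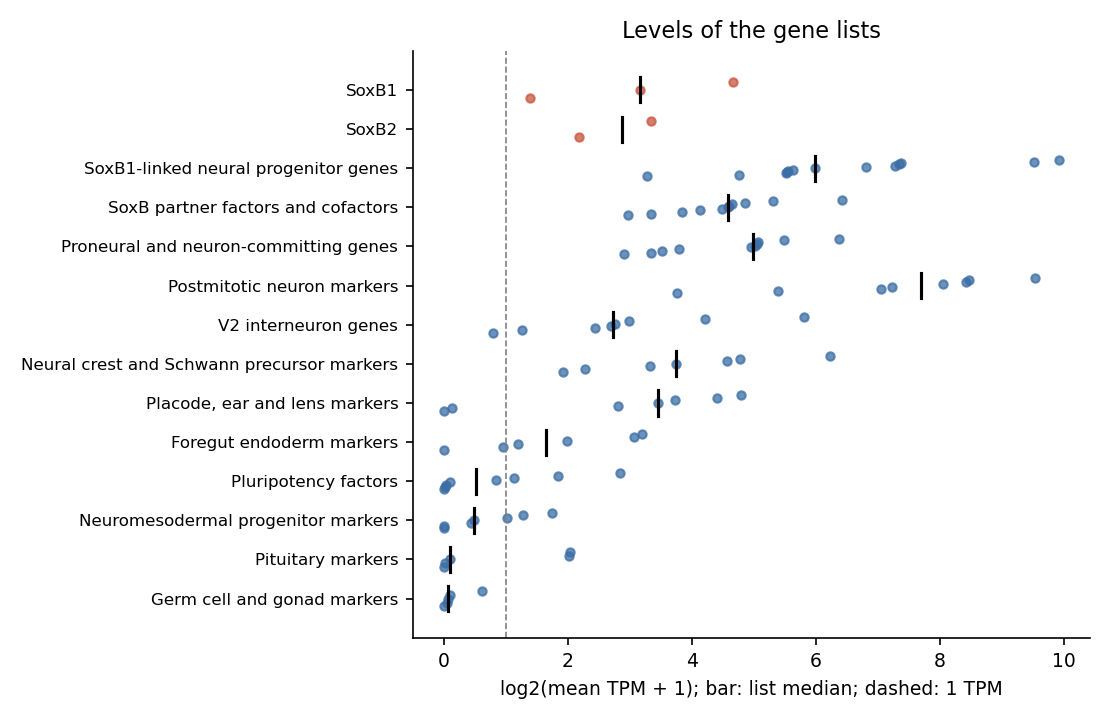
Mean TPM of each gene on a log2(TPM + 1) scale, by list, with a black bar at the list median and a dashed line at 1 TPM. The SoxB genes lie below the medians of the neural progenitor, proneural and postmitotic neuron lists, while Sox2, Sox21 and Sox3 lie above that of the V2 list. The pluripotency, neuromesodermal, pituitary and germ cell lists have medians below 1 TPM.

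SoxB genes are also expressed outside the neural tube, and markers of such cells differed widely. Neural crest and Schwann precursor markers, of cells that express Sox2, had a median of 12.5 TPM, with 7 of 7 detected and Ngfr at 74.5 ± 4.04 and Erbb3 at 12.5 ± 1.78 TPM. For placode, ear and lens the median was 9.95 TPM, with 5 of 7 markers detected. Among them were Pax8 at 20.3 ± 0.389 and Eya1 at 12.3 ± 2.66 TPM, which other cells also express. The lens gene Cryaa had 0 counts in both libraries, allowing up to 0.159 and 0.154 TPM, and the ear gene Oc90 had 0.0950 ± 0.0778 TPM. Detection of a marker, here and below, does not by itself show that such cells were in the samples. How much of the Sox2 and Sox3 RNA came from such cells was not tested.

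The median of 6 foregut markers was 2.14 TPM and 4 were detected, among them the general epithelial genes Epcam at 8.22 ± 0.0707 and Cldn6 at 7.44 ± 1.68 TPM, while the lung and thyroid factor gene Nkx2-1 had 0.0100 ± 0.0141 TPM. Neuromesodermal progenitors, which carry Sox2 together with the mesoderm factor T at the tail end of the embryo, had markers at a median of 0.40 TPM, with 3 of 7 detected. T stood at 1.44 ± 0.318 TPM (37 and 46 counts), Wnt3a at 2.35 ± 0.417 (95 and 126) and Nkx1-2 at 1.04 ± 0.0212 TPM (58 and 58). Cdx2 and Cdx4 had 0 counts, allowing at most 0.0798 and 0.0925 TPM in replicate 1. Pituitary markers passed 1 TPM in both libraries in 2 of 5 cases (median 0.0800 TPM), with 1 count in all for Pou1f1. Germ cell and gonad markers did so in 0 of 5 cases (median 0.0550 TPM), with the highest, Ddx4, at 0.535 ± 0.403 TPM.

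Promoter sequences were at hand in RefSeq (GRCm38.p6) for 4 of the 5 members, Sox1, Sox2, Sox14 and Sox21. These sequences ran from 250 bases before to 50 bases after the RefSeq start, which for Sox1 and Sox2 is not the GENCODE gene start given above. They were searched on both strands for the POU octamer ATGCAAAT and for the SOX motifs ACAAAG and ACAATG, none of which overlaps another in these windows, because POU and SoxB proteins are the factors whose levels stand above. The octamer was found in Sox1, from base 19 counting the start as 1, in 1.74% of 32851 promoters of the same length in all. ACAAAG was found in Sox2, 206 bases before the start, and in 18.7% of promoters. ACAATG, held by 12.6% of promoters, was in none of the 4. A match describes the letters and not a site of binding. The 30 bases around each, on the plus strand with the motif in capitals, were as follows, at chr8:12395526-12395555 for Sox1 and chr3:34649777-34649806 for Sox2.
Sox1: gccagcgcgccATGCAAATcaccgccgccg
Sox2: ggggggggggatACAAAGgttccccagcgg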

How the data were processed

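Per the deposited file descriptions, the authors quantified each library on mm10 with GENCODE M4. Expected counts and TPM values were deposited by the authors for genes and transcripts, with the percent of each gene held by a transcript, also deposited. The deposited interval bounds and count SDs were treated as a score, since the sources used here do not state their level. The quantifier, the aligner and strandedness are not given there either. Effective lengths were 99 bases below lengths. TPM includes spike-ins, 13.2% in replicate 1 and 11.8% in replicate 2. Libraries held 27638068 and 29166901 expected counts, and 42462 of 43346 gene identifiers (97.96%) had a symbol in GENCODE M21. Rows for 97 spike-ins and for 26248 features with only a number as name were not used as genes.

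Expected counts were rounded, and edgeR 4.0.16 (R 4.3.3) gave TMM factors and, with a prior count set to 2, log2 ratios for genes with 10 counts in at least 1 library. This step was tested on simulated data. DESeq2 1.42.0 size factors, posterior mean estimates, other filters and lengths were alternatives. Intervals are exact binomial (95%) and, like the limit of 3 counts at a count of 0, cover counting error only. No molecular identifiers mark the reads in the deposited tables, so counts may include copies of one molecule. Sequences were handled with Python 3.11.15 and Biopython 1.88. Levels are compared between genes per length only.

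The members and 21 gene lists (114 genes) were chosen with earlier results of these data known. Of each list the 4 highest genes and up to 2 below 1 TPM in both libraries could be named, and all Sox genes. The POU genes, Pax6, Pou5f1 and Nanog were named outside that rule, after their values were seen, as background partners of Sox2. Likeness of pattern was not computed, since 2 libraries of 1 group give no pattern across conditions. The values of some genes that this rule selects are not reported here. Protein sequences were not used here, and a promoter of Sox3 was not analysed here.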

Additional observations from a re-analysis of the deposited data

How the results depend on the processing

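The 5 log2 ratios between the libraries kept their direction under each of 5 alternatives (DESeq2 size factors, total counts, posterior mean counts, another prior count and deposited TPM), though that of Sox14 went from -0.35 to -0.18 on deposited TPM. Without spike-ins and numbered entries in the total, the levels were 1.85 TPM for Sox1, 27.8 for Sox2, 9.12 for Sox3 and 4.06 for Sox14, as follows from the smaller total, and their order was unchanged. With the shorter Sox2 model, an alternative chosen after seeing the data, Sox2 stood at 29.3 TPM, the SoxB1 sum at 38.9 TPM, the log2 ratio of SoxB1 to SoxB2 at 1.62 and the Sox2 share of SoxB1 at 75.3%. On counts not divided by length the ratio was 0.996, the Sox2 share 71.0%, the log2 ratio of the highest to the second level 0.77, of the second to the third 1.10, and of the fourth to the fifth -0.20, which reverses Sox14 and Sox1. With posterior mean TPM the last was 1.18. A limit of 2 TPM left 4 genes detected and one of 5 TPM left 3. Past 1.5-fold between the libraries were 1862 of 17219 genes, 5189 of 23539 with no filter on low counts and 193 of 12528 at 100 counts, and the cause was not tested. No paired analysis was possible because the series holds 1 group. Leaving out a replicate gives the value of the other library and, with 2 libraries, says nothing of stability. The SoxB1 sum has no value on counts, which have another unit. All 5 members have over 100 counts in each library.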

Other observations

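The neighbours of the SoxB genes were read by position in GENCODE M21. Sox1ot, a long noncoding gene on the same strand (chromosome 8, 12385771 to 12436768) that spans the whole of Sox1 and shares 0 exon bases with it, had 0.220 and 0.260 TPM from 19 and 23 counts, below the 1.62 TPM of Sox1. Sox2ot (chromosome 3, 34104270 to 34682619) spans Sox2 in the same way, with 0 exon bases shared, and was not analysed here. Gm25239, a miRNA gene on the strand of Sox1 (chromosome 8, 12396403 to 12396488), shares 86 exon bases with Sox1 and had 0 counts in both libraries. Gm14662, annotated as antisense and starting 223 bases beyond Sox3 (chromosome X, 60893653 to 60898067), had 1.36 and 0.970 TPM from 15 and 11 counts. Gm4675, on the strand opposite to Sox21 (chromosome 14, 118236232 to 118261199), had 1.58 and 1.38 TPM. Within 10000 bases of Sox14 the annotation lists no other gene.

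The coding lengths differ more than the HMG boxes do. In GENCODE M21 the proteins have 450 residues for Sox3, 391 for Sox1, 319 for Sox2, 276 for Sox21 and 240 for Sox14. The box starts at residue 6 in both SoxB2 proteins, against residue 41 in Sox2, 49 in Sox1 and 142 in Sox3.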
